A study of Mus musculus with 6 samples.

Results

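The NMDA receptor subunit genes are described here in mouse cerebellum at postnatal day 18. The members were the rows with the symbols Grin1, Grin2a, Grin2b, Grin2c, Grin2d and Grin3a in the gene count tables, 6 of 24411 genes, and all 6 were found and passed the filter on low counts. Bulk RNA sequencing was available from 3 libraries of the Atoh7 Remote Enhancer KO (KO) and 3 WT libraries. The KO lacks a distant regulatory element of Atoh7, a proneural transcription factor gene known for its part in the birth of retinal ganglion cells. No treatment, strain, sex or breeding scheme is given in the labels, and whether each library is 1 animal or a pool is not given either, so the p-values measure the spread between these libraries. The tissue entry of every sample reads retina, while the study's design and protocol name the cerebellum.

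NMDA receptors are glutamate-gated channels built from the obligatory GluN1 subunit (Grin1) together with GluN2 subunits (Grin2a to Grin2d) or GluN3 subunits such as Grin3a. They open when glutamate and a co-agonist, glycine or D-serine, are bound and the membrane is depolarised enough to expel magnesium from the pore, and they pass calcium. The GluN2 type sets how strongly magnesium blocks the channel and how slowly it closes. In rodents, young cerebellar granule cells carry GluN2B, and as they mature after birth GluN2A and GluN2C take its place, a change known as the subunit switch of granule cells. GluN2D is known from Golgi cells and from neurons of the cerebellar nuclei.

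The subunits are paralogs, so a stretch of 1 gene of each class (GluN1, GluN2 and GluN3) shows how far reads can tell them apart. Each line gives 60 coding bases, 5′ to 3′ on the coding strand, around the third membrane segment, among the most conserved parts of the channel. They were read from the GENCODE transcripts of GRCm38, and capitals mark the 28 positions that are the same in Grin1, Grin2c and Grin3a.
Grin1: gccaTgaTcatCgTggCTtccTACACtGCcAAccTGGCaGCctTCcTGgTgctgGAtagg
Grin2c: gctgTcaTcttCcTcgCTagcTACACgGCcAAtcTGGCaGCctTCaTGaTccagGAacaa
Grin3a: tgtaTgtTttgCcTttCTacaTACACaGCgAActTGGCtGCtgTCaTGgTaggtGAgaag

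The 3 stretches lie on the minus strand and inside a single exon, at chr2:25297184-25297243 for Grin1, chr11:115253734-115253793 for Grin2c and chr4:49770455-49770514 for Grin3a. Grin1 and Grin2c had 42 of the 60 bases in common, Grin1 and Grin3a 35, and Grin2c and Grin3a 34. Over all annotated transcripts and both strands, the longest run of identical bases between any pair of the 6 genes was 34 (Grin2b and Grin2c), followed by 32 (Grin2c and Grin2d) and 28 (Grin2a and Grin2d). The read length is not given in the sources used here. Grin1 is the gene at which strand matters: the antisense gene Grin1os (chr2:25291220-25298925, plus strand) shares 1307 exon bases with it. The span of Grin1os also covers the Grin1 stretch printed above.

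Reads on genes numbered 32556977 to 34438262 in KO and 16340132 to 28170761 in WT libraries. WT replicate 3 stood apart, with 63.2% of its gene reads on the ribosomal RNA precursor Rn45s (1.28% to 3.04% in the other libraries) and 6015125 reads on all other genes. Reads outside genes made up 17.1% to 17.6% of KO and 32.0% to 38.5% of WT libraries. The X inactivation RNA Xist had 31134 reads in WT replicate 1 and at most 10 in any other library. Read by this RNA, WT replicate 1 holds female tissue and no KO library does, so sex was not balanced between the groups. The part of sex in the values below was not tested. Atoh7 had 45, 54 and 92 reads in KO and 72, 56 and 7 in WT replicates, and since the deleted element is remote from the gene, these reads do not check the genotype. Markers fit the cerebellum: the 10 mature granule neuron markers summed to 1807 to 2429 CPM in KO and 2219 to 2830 CPM in WT (CPM, TMM-scaled counts per 1000000 gene reads), while the photoreceptor factor Crx had 0 reads in every library.

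Per kilobase of exon, Grin1 had the highest level of the 6 subunit genes and Grin2c the second highest in every library. To compare genes of different size, CPM were divided by the kilobases of merged annotated exons. On this scale Grin1 had 29.8 ± 1.39 CPM per kb in KO and 27.7 ± 2.04 in WT, and Grin2c 16.8 ± 1.78 in KO and 19.9 ± 2.49 in WT (SD, n = 3 each). Grin3a followed with 7.35 ± 0.300 CPM per kb in KO and 6.91 ± 1.02 in WT, then Grin2d with 3.90 ± 0.251 in KO and 3.27 ± 0.598 in WT, Grin2b with 2.21 ± 0.148 in KO and 2.07 ± 0.154 in WT, and Grin2a with 1.72 ± 0.106 in KO and 1.56 ± 0.171 in WT. The order was the same in 6 of 6 libraries, and no range of 1 gene over the libraries overlapped that of its neighbour. Long untranslated ends weigh on this scale: the merged exons of Grin2b cover 24.8 kb, of which 4.45 kb are coding, and those of Grin2c 5.04 kb with 3.72 kb coding. In raw reads not divided by length, Grin2c to Grin2b was 1.25 to 1.72 in KO and 1.71 to 2.44 in WT. Grin2d to Grin2b was 0.464 to 0.483 in KO and 0.335 to 0.470 in WT, so the order of these 2 genes rests on the length. The second place of Grin2c rests on it as well. In CPM not divided by length, Grin3a was above Grin2c in KO replicates 2 and 3 and WT replicate 1. There Grin3a had 94.1, 89.8 and 97.2 CPM and Grin2c 74.3, 87.6 and 93.2 CPM. In the other libraries Grin2c was the higher. With the length of the longest coding transcript in place of merged exons, a choice made after seeing the data, the order by group mean was the same. For Grin2b this length, 24.1 kb, is close to that of the merged exons. Grin1 then had 67.6 ± 3.15 CPM per kb in KO and 62.8 ± 4.62 in WT, and the ranges of Grin2b and Grin2a overlapped, with Grin2b higher in 5 of 6 libraries.

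Among the 4 Grin2 genes, Grin2c supplied most of the transcripts per kb of merged exons. Its share was 70.0%, 63.9% and 70.2% in KO replicates 1 to 3, against 70.7%, 76.8% and 75.0% in WT replicates 1 to 3. Every KO share was below every WT share, though KO replicate 3 and WT replicate 1 were close. Grin2d, the subunit gene of Golgi cells and nuclear neurons, held 14.9%, 18.02% and 14.8% in KO and 14.7%, 11.1% and 10.8% in WT. Grin2a, the other mature granule cell subunit, held 6.81%, 7.77% and 6.45% in KO and 6.18%, 5.70% and 5.56% in WT. For both genes every KO share was above every WT share, again by little between the nearest libraries. Grin2b, the subunit of young granule cells, held 8.27%, 10.3% and 8.54% in KO and 8.38%, 6.39% and 8.63% in WT, and the groups overlapped. Two-sided exact permutation tests of the 4 shares gave p = 0.1 for Grin2a, Grin2c and Grin2d, the smallest that 3 against 3 can give, and p = 0.5 for Grin2b (0.133 and 0.5 after Benjamini-Hochberg adjustment over the 4), so no share passed 0.05. The 4 shares sum to the whole, so that a lower share of Grin2c raises the others. The shares and their tests were not among the planned comparisons.

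**Figure D1:**
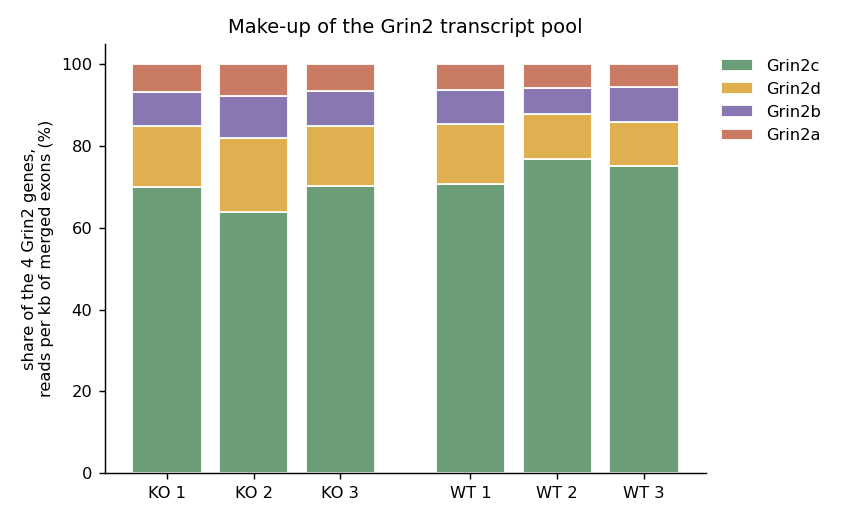
Share of each Grin2 gene (%) in the reads per kilobase of merged exons of the 4 Grin2 genes, 1 bar per library, KO on the left and WT on the right. Grin2c makes up 63.9% to 70.2% in KO and 70.7% to 76.8% in WT libraries.

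No subunit gene passed the test of KO against WT. At an adjusted p of 0.05 (edgeR, quasi-likelihood fit, Benjamini-Hochberg over 15519 genes), 0 of the 6 subunit genes were called, where 16.7% of all tested genes were (6.43% higher and 10.2% lower in KO). With 6 members, a count of 0 is not far from that background. At an unadjusted p under 0.05 there was 1, Grin2c, against 32.5% of all tested genes. DESeq2 and limma-voom also called 0 of the 6. DESeq2 called 2624 of 15519 genes, or 17.6% of those it gave an adjusted p. With limma-voom 18.5% of all tested genes were called. Log2 fold changes, KO over WT, were positive for 5 genes and negative for Grin2c. Their median was 0.10, beside −0.01 over all tested genes, and their median absolute size was 0.11, beside 0.17 over all tested genes.

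Grin2c had 91.4, 74.3 and 87.6 CPM in KO replicates 1 to 3, from 3523, 2945 and 3634 reads, and 93.2, 114.8 and 92.8 CPM in WT replicates 1 to 3, from 3209, 3709 and 599 reads. All KO libraries were below all WT libraries, which was so for 20.5% of all tested genes, while 0 of the 6 subunit genes were above in all KO libraries, against 18.9% of all tested genes. The gap was small: KO replicate 1 and WT replicate 3 lay close together, and the lowest KO and the highest WT library were both replicate 2. The log2 fold change was −0.25 (SE 0.10, 95% interval −0.48 to −0.03; adjusted p = 0.116, edgeR), a fold of 0.839. By absolute log2 fold change Grin2c lay above 67.2% of all tested genes. It was −0.14 without WT replicate 2 (adjusted p = 0.390) and −0.17 without KO replicate 2 (adjusted p = 0.355), and it passed the threshold only in limma-voom with sample quality weights (−0.31, adjusted p = 0.0454). That fit called 26.4% of all tested genes.

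Grin2b had 53.2, 59.2 and 52.6 CPM in KO replicates 1 to 3, from 2053, 2347 and 2180 reads, and 54.5, 47.1 and 52.7 CPM in WT replicates 1 to 3, from 1875, 1523 and 340 reads. The groups overlapped, and replicate 2 was again the extreme library of each genotype, here the highest in KO and the lowest in WT. The log2 fold change was 0.10 (SE 0.08, 95% interval −0.07 to 0.27; adjusted p = 0.408, edgeR), an interval of 0.951 to 1.21 as a fold. It was 0.04 without WT replicate 2 and 0.05 without KO replicate 2.

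Grin2a had 31.7, 32.2 and 28.7 CPM in KO and 29.0, 30.3 and 24.5 CPM in WT replicates 1 to 3, with 158 reads in WT replicate 3 and 980 to 1275 in the other libraries. Its log2 fold change was 0.12 (SE 0.09, 95% interval −0.08 to 0.32; adjusted p = 0.387, edgeR). The groups overlapped, and WT replicate 3 was the lowest library; without it the value was 0.06, and without WT replicate 2 it was 0.18.

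Grin2d had 25.7, 27.7 and 24.4 CPM in KO and 25.6, 22.03 and 17.7 CPM in WT replicates 1 to 3, from 992, 1098 and 1012 reads in KO and 882, 712 and 114 reads in WT. WT replicate 1 was as high as the KO libraries and WT replicate 3 stood lowest. The log2 fold change was 0.21 (SE 0.11, 95% interval −0.04 to 0.46; adjusted p = 0.223, edgeR), the largest positive value among the 6 genes. Without WT replicate 1 it was 0.34 (adjusted p = 0.0611) and without WT replicate 3 it was 0.13 (adjusted p = 0.316).

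Grin1, the subunit in every NMDA receptor, had 290.8, 301.9 and 275.1 CPM in KO and 287.2, 270.1 and 247.8 CPM in WT replicates 1 to 3. Its counts were the deepest of the family, 11211 to 11962 reads in KO and 1599 to 9891 in WT, and its log2 fold change was 0.11 (SE 0.07, 95% interval −0.05 to 0.26; adjusted p = 0.327, edgeR). Of the 6 genes it had the narrowest interval, and the groups overlapped. Without WT replicate 3 the value was 0.06.

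Grin3a, whose subunit lowers calcium entry and magnesium block, had 86.8, 94.1 and 89.8 CPM in KO and 97.2, 85.2 and 72.1 CPM in WT replicates 1 to 3. The 3 KO libraries lay within the WT range, and the coefficient of variation was 4.08% in KO and 14.8% in WT. The log2 fold change was 0.08 (SE 0.10, 95% interval −0.13 to 0.29; adjusted p = 0.620, edgeR), and its sign turned without WT replicate 3 (−0.01).

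**Figure D2:**
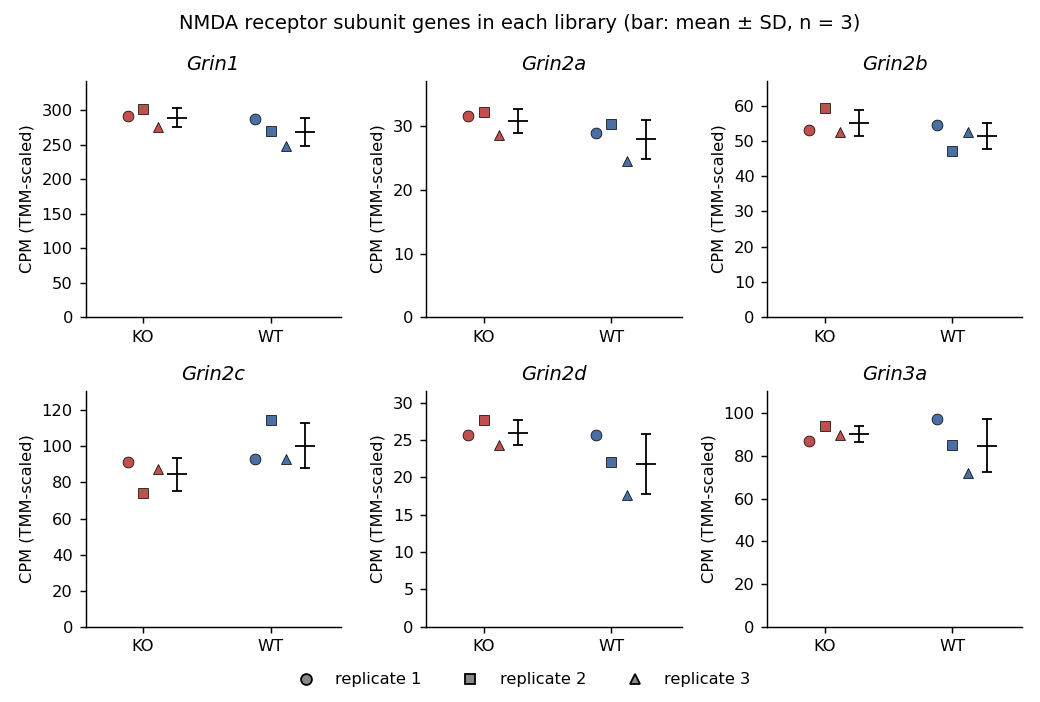
CPM of the 6 subunit genes in each library, KO left of WT in every panel; symbols mark the replicate and the bar the mean ± SD (n = 3 each). KO and WT overlap for 5 genes, and Grin2c is at 74.3 to 91.4 CPM in KO and 92.8 to 114.8 CPM in WT.

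WT replicate 3, the library with the fewest reads, was the lowest of the 3 WT libraries for every subunit gene but Grin2b. The share of reads outside genes also separated the genotypes, and its log2 ratio to gene reads other than Rn45s was −1.95 to −1.89 in KO and −0.71 to 1.56 in WT. With this ratio as a covariate, Grin2c was at −0.38 and Grin2b at 0.14, the same direction as without it, while the signs of Grin1 (−0.04), Grin2a (−0.10), Grin2d (−0.11) and Grin3a (−0.20) turned. Adjusted p for the 6 genes ranged from 0.237 (Grin3a) to 0.835 (Grin1) in this edgeR fit. Within WT the ratio varied mainly through replicate 3, so read assignment and that library cannot be told apart.

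**Figure D3:**
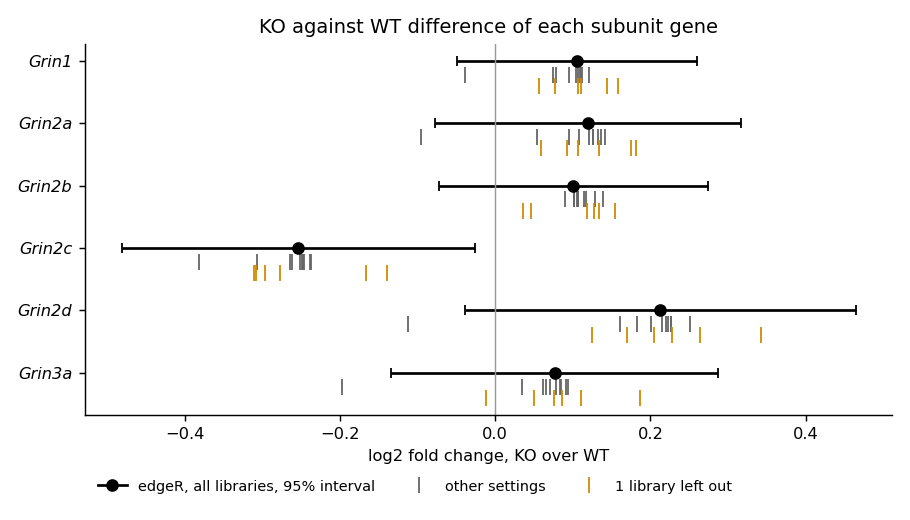
Log2 fold change, KO over WT, of each subunit gene with its 95% interval (black, edgeR with all libraries); grey marks are other normalisations, tests, counts and covariates, orange marks the fits without 1 library. Grin2c lies below 0 under every setting drawn, from −0.38 to −0.14, and Grin2b above 0; the signs of Grin1, Grin2a, Grin2d and Grin3a turn with the covariate, and that of Grin3a also without WT replicate 3.

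The ratio of Grin2c to Grin2b was computed because of the subunit switch of granule cells, and within a library it needs no scaling between libraries. In bulk tissue, a switch within granule cells and a different mix of cells cannot be told apart by this ratio. In reads per kb it was 8.46, 6.19 and 8.22 in KO replicates 1 to 3 and 8.44, 12.01 and 8.69 in WT replicates 1 to 3. KO replicates 1 and 3 and WT replicates 1 and 3 lay within a narrow band, and the groups overlapped; the mean difference came mainly from replicate 2 of each genotype. The mean was 7.62 ± 1.25 in KO and 9.71 ± 1.99 in WT (SD, n = 3 each), a log2 difference of −0.34, or a fold of 0.788, with p = 0.2 in a two-sided exact permutation test (0.4 adjusted over the 4 ratios tested; the smallest p possible is 0.1). Without KO replicate 2 the difference was −0.20 and without WT replicate 2 it was −0.18. In raw reads not divided by length, the ratio was 1.72, 1.25 and 1.67 in KO and 1.71, 2.44 and 1.76 in WT, with the same log2 difference of −0.34.

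The other ratios were no clearer. Grin2a to Grin2b was 0.824, 0.753 and 0.756 in KO and 0.738, 0.891 and 0.644 in WT (log2 difference 0.05, exact permutation p = 0.8), and its sign turned without WT replicate 3 (−0.06). Grin2d to Grin2b was 1.80, 1.75 and 1.73 in KO and 1.76, 1.74 and 1.25 in WT (log2 difference 0.17, exact permutation p = 0.5), and without WT replicate 3 it was 0.01. The summed Grin2 genes relative to Grin1 were at 0.864, 0.742 and 0.873 in KO and 0.883, 1.07 and 0.962 in WT. Here all KO libraries were below all WT libraries (log2 difference −0.23; exact permutation p = 0.1, 0.4 adjusted over the 4 ratios). The difference was −0.15 in raw reads not divided by length, and in counts without regard to strand it was −0.18 with an exact permutation p of 0.3.

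**Figure D4:**
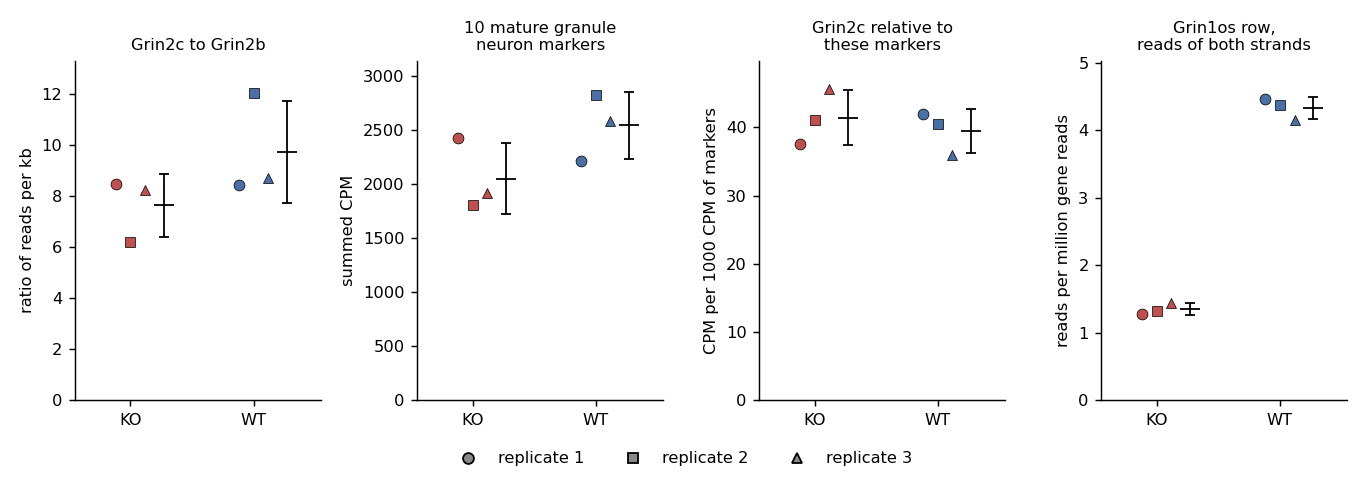
Per library, KO left of WT, with mean ± SD (n = 3 each): the Grin2c to Grin2b ratio in reads per kb, the summed CPM of 10 mature granule neuron markers, Grin2c per 1000 CPM of these markers, and CPM of the Grin1os row counted without regard to strand (total: gene reads other than Rn45s). KO and WT overlap in the first 3 panels. In the fourth KO is at 1.28 to 1.44 and WT at 4.16 to 4.47. That panel holds reads of both strands, in WT mostly those of the Grin1 strand.

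The levels of markers of granule neurons, the main carriers of Grin2c in cerebellum, are set beside it here. In bulk tissue, fewer cells of a type and less RNA per cell cannot be told apart. The 10 mature granule neuron markers summed to 2429, 1807 and 1922 CPM in KO replicates 1 to 3 and 2219, 2830 and 2586 CPM in WT replicates 1 to 3. The groups overlapped, and as for Grin2c, KO replicate 2 was the lowest library and WT replicate 2 the highest. The median log2 fold change of the 10 markers was −0.28, beside −0.01 over all tested genes, and 1 of the 10 was positive. Of these markers 1 fell (10%, beside 10.2% of all tested genes), 0 rose and 9 did not pass; the one that fell was Gabra6, a GABA receptor subunit of mature granule cells, with 202.0, 155.0 and 185.2 CPM in KO and 241.5, 338.4 and 278.5 CPM in WT (log2 −0.66, SE 0.14, adjusted p = 0.0157, edgeR). Grin2c per 1000 CPM of the summed markers, a quantity chosen after seeing the data, was 37.6, 41.1 and 45.6 in KO and 42.0, 40.6 and 35.9 in WT. It averaged 41.4 ± 3.99 in KO and 39.5 ± 3.19 in WT, and the groups overlapped (SD, n = 3 each). Grin2b per 1000 CPM of the same markers was 21.9, 32.8 and 27.3 in KO and 24.5, 16.7 and 20.4 in WT, and overlapped as well. The part of granule cell content in the values of Grin2c and Grin2b was not tested.

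The 10 markers of immature granule neurons summed to 1498 to 1596 CPM in KO and 1474 to 1627 CPM in WT. Of them 1 was higher (Tubb3), 1 lower (Dcx) and 8 not passed. That is 10% each way, beside 6.43% higher and 10.2% lower over all tested genes. The 6 measured progenitor markers summed to 52.9 to 62.1 CPM in KO and 65.1 to 69.0 CPM in WT. Of these, 2 were lower (Top2a and Ccnb2), or 33.3%, beside 10.2% of all tested genes. Golgi cell markers summed to 191.0 to 202.4 CPM in KO and 143.8 to 173.4 CPM in WT. Of the 4 genes, Slc6a5, the glycine transporter of inhibitory terminals, and Lgi2 rose (50%, beside 6.43% of all tested genes). The other 2 did not pass. The part of Golgi cell content in the values of Grin2d was not tested. Grin2d per 100 CPM of the Golgi markers, a quantity not planned beforehand, was 13.1 ± 0.874 in KO and 13.7 ± 2.15 in WT (SD, n = 3 each). Cerebellar nuclear markers summed to 486.2 to 530.5 CPM in KO and 400.9 to 528.8 CPM in WT. Vessel markers summed to 106.1 to 110.0 CPM in KO and 147.3 to 161.2 CPM in WT. Meningeal markers summed to 144.9 to 161.6 CPM in KO and 201.4 to 315.2 CPM in WT. Of the vessel markers 4 of 6 were lower (66.7%) and of the meningeal markers 4 of 5 (80%), beside 10.2% of all tested genes.

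The sense of the reads matters at Grin1. Counted without regard to strand, Grin1 kept 56.1% to 58.1% of its strand-specific reads in KO and 57.8% to 62.2% in WT, since STAR assigns no read that falls on exons of both genes. On its own strand Grin1os had 16, 22 and 4 reads in KO and 7, 8 and 2 in WT. Without regard to strand it had 41, 43 and 49 reads in KO and 122, 114 and 25 in WT, or 1.28, 1.33 and 1.44 CPM in KO and 4.47, 4.38 and 4.16 CPM in WT when gene reads other than Rn45s are the total. The groups lay far apart, at a fold of 0.311, KO over WT. Of these reads, at least 25, 21 and 45 in KO and 115, 106 and 23 in WT lay on the Grin1 strand. The fold therefore does not describe Grin1os on its own strand. In the GENCODE annotation, the 1584 exon bases that Grin1os does not share with Grin1 exons all lie within Grin1 introns.

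A similar difference stood inside Grin3a. Ppp3r2, a calcineurin B gene best known from testis, lies in a Grin3a intron on the same strand (chr4:49678747-49682024) and shares no exon base with it. It had 17, 26 and 18 reads in KO and 51, 42 and 8 in WT, and fell in KO by 1.42 on the log2 scale (SE 0.26, adjusted p = 0.00536, edgeR). Reads opposite to Grin3a were 31, 31 and 45 in KO and 59, 60 and 20 in WT, or 0.965, 0.956 and 1.33 CPM in KO and 2.16, 2.31 and 3.33 CPM in WT on the same total. These 3 measures were chosen after seeing the data, and like the share of reads outside genes they were lower in all KO than in all WT libraries; its part in them was not tested. The exonic counts of Grin1 and Grin3a overlapped between the groups.

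The scaffold genes are those whose products hold NMDA receptors at the synapse. Among 26 scaffold genes 4 were called higher in KO (15.4%, beside 6.43% of all tested genes), 0 lower, and 22 were not called; their median log2 fold change was 0.11, beside −0.01 over all tested genes. Apba1, an adaptor of the complex that carries GluN2B vesicles, had 287.9, 270.3 and 260.5 CPM in KO and 231.8, 223.8 and 229.5 CPM in WT (log2 0.26, SE 0.06, adjusted p = 0.0184, edgeR). Dlgap4 (0.26) and Dlgap3 (0.24), which tie PSD-95 to the Shank proteins, and Homer3, a Homer scaffold of Purkinje cells (0.31), rose as well. The 8 Purkinje cell markers summed to 3215 to 4099 CPM in KO and 2921 to 3520 CPM in WT beside Homer3. Of the 8, 2 were higher (Slc1a6 and Calb1), or 25%, beside 6.43% of all tested genes. The part of Purkinje cell content was not tested. The count of 4 depended on single libraries: it was 1 without WT replicate 2, 0 without KO replicate 1 or 2, and 1 without KO replicate 3. Calls over all tested genes fell in these fits too, from 16.7% with all libraries to 8.46% without WT replicate 2. They were 8.22%, 7.22% and 6.64% without KO replicates 1, 2 and 3. Dlg4, which encodes PSD-95, was at 0.16 and did not pass.

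Of 26 genes that act downstream of the receptor or phosphorylate it, 2 rose (7.69%, beside 6.43% of all tested genes), 0 fell and 24 did not pass (median log2 fold change 0.10). Camk2a, the calcium and calmodulin kinase that binds GluN2B, had 124.6, 132.8 and 121.6 CPM in KO and 115.8, 82.9 and 94.7 CPM in WT (log2 0.37, SE 0.11, adjusted p = 0.0467, edgeR). Calm3, a calmodulin gene, rose by 0.25 (SE 0.07). Dropping WT replicate 1 gave a count of 4 and dropping WT replicate 3 a count of 5, while it was 0 without WT replicate 2 or any 1 KO replicate. Over all tested genes, 15% were called without WT replicate 1 and 23.4% without WT replicate 3. The share was 6.64% to 8.46% without any other single library, beside 16.7% with all libraries.

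Genes that handle the co-agonists and glutamate included the clearest change around the receptor. Among 21 genes 5 were called higher (23.8%, beside 6.43% of all tested genes), 0 lower, and 16 were not called (median log2 fold change 0.04). Glul, the glutamine synthetase of astrocytes, had 1109, 1122 and 1164 CPM in KO and 821.0, 728.0 and 785.7 CPM in WT (log2 0.54, SE 0.07, adjusted p = 0.00106, edgeR). The glutamate transporters Slc1a2 of astrocytes (0.38) and Slc1a6 of Purkinje cells (0.44), the glycine transporter Slc6a9 (0.21) and Gcsh, a protein of glycine cleavage (0.24), rose too. Srr, the enzyme that makes D-serine, was at 0.01 and its degrading enzyme Dao at 0.05, and neither passed. The 7 astrocyte and Bergmann glia markers, which include Slc1a2 and Slc1a3, summed to 5759 to 6336 CPM in KO and 5157 to 5344 CPM in WT beside these genes. Of the 7 markers 1, Slc1a2, was called higher (14.3%, beside 6.43% of all tested genes). Without Slc1a2 the other 6 summed to 2722, 2308 and 2581 CPM in KO and 2322, 2593 and 2574 CPM in WT, and the groups overlapped. The 5 oligodendrocyte lineage markers, 0 of them called (16.7% of all tested genes were), summed to 25603 to 27790 CPM in KO and 20127 to 22793 CPM in WT, all KO libraries above all WT libraries. The part of oligodendrocyte content in these genes was not tested. Leaving out KO replicate 1 or 3 cut the count of 5 to 1, and leaving out KO replicate 2 or WT replicate 1 or 2 cut it to 2. Over all tested genes, 15% were called without WT replicate 1 and 6.64% to 8.46% in the rest of these fits, beside 16.7% with all libraries.

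Among 22 genes linked to the subunit switch, 3 were called higher (13.6%, beside 6.43% of all tested genes) and 1 lower (4.55%, beside 10.2%), and 18 were not called (median log2 fold change −0.09). Ppp3r1, the calcineurin B subunit of brain, had 337.4, 377.2 and 348.1 CPM in KO and 294.0, 270.6 and 243.3 CPM in WT (log2 0.39, SE 0.08, adjusted p = 0.00886, edgeR). Ntrk2, the BDNF receptor (0.28), rose, and Eed, a Polycomb subunit, fell by 0.44 (SE 0.12). Etv1, a factor of granule cell maturation that activates Grin2c in mouse, was at −0.31, the neuregulin gene Nrg1 at 0.19, its receptor Erbb4 at −0.16 and Rest, a repressor of neuronal genes, at −0.20, and none of these passed. Leaving out KO replicate 2 or 3 or WT replicate 2 left 1 higher and 0 lower members. There were 3 lower members when WT replicate 1 was dropped and 4 when WT replicate 3 was dropped. Over all tested genes, 6.64% to 8.46% were called without KO replicate 2 or 3 or WT replicate 2. The share was 15% without WT replicate 1 and 23.4% without WT replicate 3, beside 16.7% with all libraries.

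The 3 genes whose log2 CPM over the 6 libraries was most like that of each subunit gene were picked from 9601 genes with a mean of at least 10 CPM (Gm and Rik genes left out). They were picked for their r among many genes over few points, no level of r without a relation was computed, and the names are a description only. For Grin2c these were Sesn1, Sh3gl1 and Fnta (Pearson's r 0.986 to 0.993), and for Grin2b Stambp, Caly and Npnt (0.975 to 0.984). Sema4f, Tnks and Ctsa followed Grin2a (0.991 to 0.996), Slitrk1, Magee1 and Agap2 Grin1 (0.986 to 0.989), P4htm, Agap2 and Gsg1l Grin2d (0.994 to 0.998), and Smad2, Adcy2 and Ctdspl Grin3a (0.989 to 0.995). These points share library, depth and genotype, and 0 of these genes were called between KO and WT. Agap2, a GTPase-activating protein gene, stood among the 3 nearest for both Grin1 and Grin2d.

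Grin3b and Grina, which are related by name and are not members, did not pass either. Grin3b, the other GluN3 gene, was near the limit of detection, with 111, 75 and 126 reads in KO and 56, 79 and 4 in WT (log2 0.51, SE 0.30, adjusted p = 0.272, edgeR). Grina, which encodes a membrane protein and no receptor subunit, had 326.5, 326.8 and 314.4 CPM in KO and 282.6, 294.7 and 292.1 CPM in WT (log2 0.15, SE 0.06, adjusted p = 0.0852, edgeR).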

How the data were processed

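Each library's deposited file lists raw read counts by gene, produced by the authors with Trimmomatic and STAR on mm10, per the submitters' processing notes. Tool versions, the annotation and the strand setting of the kit are not given there. Column 4, the heavier strand, was used, at 47.6 to 127.6 times the reads of column 3. The 4 summary lines (33.0% to 64.6% of reads) stayed out of library sizes and tests. Groups and replicate numbers came from the sample titles, also for KO replicate 3, whose file is named with RN where the other KO files have RE. Genes with low counts were removed with filterByExpr (15519 of 24411 kept), libraries were scaled by TMM, and KO was set against WT in edgeR's quasi-likelihood fit (edgeR 4.0.16, R 4.3.3) with p-values adjusted by Benjamini-Hochberg across 15519 genes; the fit was tested on simulated data. SE are the absolute log2 fold change over the square root of F and are approximate, as are the intervals. Lengths came from GENCODE (GRCm38, the assembly behind mm10). DESeq2 1.42.0 and limma 3.58.1 served as alternatives. The members and lists were chosen with earlier results of these data known. Named genes were the subunits, up to 4 called members of each list by smallest p and those completing a count of 5 or fewer, and the 3 genes with the highest r to each subunit. Other genes were chosen after their values were seen. Some called list members and sequences are not reported here.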

Additional observations from a re-analysis of the deposited data

How the results depend on the processing

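Grin2c and Grin2b kept their direction under every alternative run, and 0 subunit genes passed under all of them except limma-voom with sample quality weights, where 1 did (Grin2c, −0.31, adjusted p = 0.0454). That fit called 26.4% of all tested genes, beside 16.7% in the main fit. Signs turned with the read assignment covariate for Grin1 (−0.039), Grin2a (−0.095), Grin2d (−0.11) and Grin3a (−0.20). With 1 library left out, log2 fold changes ranged from −0.31 to −0.14 for Grin2c and from −0.012 to 0.19 for Grin3a, the Grin2a to Grin2b ratio from −0.063 to 0.17 and the Grin2c to Grin2b ratio from −0.44 to −0.18. The labels do not say whether libraries of the same replicate number are paired. Deviations of same-numbered KO and WT libraries correlated at −0.18, −0.14 and −0.10. No reference level was computed, so these values cannot decide it. With the replicate block, Grin2c was at −0.25 (adjusted p = 0.236) and 1073 of all tested genes were called in place of 2585.

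The list counts moved more. With 1 library left out, higher and lower members numbered 0 to 5 and 0 to 1 for scaffold genes, 0 to 5 and 0 to 1 for signalling genes, 1 to 5 and 0 to 2 for co-agonist and glutamate genes, and 1 to 3 and 0 to 4 for switch regulators. Over all tested genes, 6.64% to 23.4% were called in these fits, beside 16.7% in the main fit. With the replicate block there were 0 higher scaffold and 0 higher signalling genes, 1 higher co-agonist gene, and 1 higher and 0 lower switch regulators. This fit called 6.91% of all tested genes. With the covariate there were 2 higher scaffold genes, 1 higher signalling gene, 1 higher and 2 lower co-agonist genes and 1 higher switch regulator. The covariate fit called 9.16% of all tested genes. Higher signalling genes numbered 1 with upper-quartile scaling, 8 with no filter, 7 with DESeq2, 6 with limma-voom, 9 with quality weights and 7 without regard to strand. Of all tested genes, 16.2% were called with upper-quartile scaling and 14.1% with no filter. With DESeq2, 17.6% of the genes given an adjusted p were called. The share of all tested genes was 18.5% with limma-voom, 26.4% with quality weights and 19.7% without regard to strand. Lower switch regulators numbered 2 with upper-quartile scaling, no filter, DESeq2, limma-voom and counts without strand, and 3 with quality weights. Lower co-agonist genes numbered 1 with upper-quartile scaling, DESeq2 and limma-voom and 2 with quality weights, which also gave 7 higher and 1 lower scaffold genes and 1 lower signalling gene. The cause of these moves was not tested. WT replicate 3, with 114 to 1599 reads per subunit gene, limits the precision of the WT values.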
